A study of Mus musculus with 2 samples.

Results

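Chemokine receptors, sphingosine-1-phosphate (S1P) receptors and integrins are the cell surface proteins with which leukocytes leave the blood, move through tissue and stay there or leave again. The expression of 37 genes of these families, the homing receptors below, was examined in immune cells of visceral adipose tissue (VAT), out of 26981 genes listed in either library. They are 18 chemokine receptors (Ccr1, Ccr2, Ccr3, Ccr4, Ccr6, Ccr7, Ccr8, Ccr9, Ccr10, Cxcr2, Cxcr3, Cxcr4, Cxcr5, Cxcr6, Cx3cr1, Xcr1, Ccrl2 and Ackr3), 3 S1P receptors (S1pr1, S1pr4 and S1pr5), the oxysterol receptor Gpr183, and 15 integrin subunits, of which 9 are alpha chains (Itga1, Itga2, Itga4, Itga6, Itgae, Itgal, Itgam, Itgav and Itgax) and 6 are beta chains (Itgb1, Itgb2, Itgb3, Itgb5, Itgb7 and Itgb8). The genes were taken by name from these families, with earlier results of these data known, and all 37 were listed in both libraries. The question was which VAT cell types carry which receptor, and whether the levels within a cell type differed between mice with an intact and a depleted gut microbiota.

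CD45+ cells came from the visceral fat (eWAT) of 15-week-old wild-type C57BL/6 mice kept specific pathogen-free, which drank normal water (NW) or received antibiotics (ABX). The broad-spectrum cocktail that the study describes held ampicillin, vancomycin, streptomycin and colistin. Each condition is represented by a single library of the BD Rhapsody system, in which whole transcriptomes and AbSeq surface antibodies were read from the same cells, and how many mice went into it is not given in the sources used here. A unique molecular identifier (UMI) counts 1 captured mRNA molecule. Levels are UMIs summed over the cells of a class as counts per 1000000 gene UMIs of those cells (CPM). With 1 library per condition no test between NW and ABX was possible. All intervals are 95% intervals that cover counting error only, not the spread between cells, mice, cell preparations or libraries. They treat UMIs as independent and are too narrow where few cells hold many of the UMIs.

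Chemokine receptors are G protein-coupled receptors that steer cells along gradients of chemokines, small secreted proteins. CCR1, CCR2, CXCR2 and CX3CR1 are best known for the recruitment of neutrophils, monocytes and macrophages, CCR7 and CXCR5 for the traffic of dendritic cells and lymphocytes to and within lymph nodes, and CCR4, CCR6, CCR8, CCR9, CCR10, CXCR3 and CXCR6 for placing lymphocytes in tissues such as skin, gut and inflamed sites. S1P is abundant in blood and lymph, so that S1PR1 lets lymphocytes leave tissues and lymph nodes. Integrins are pairs of an alpha and a beta chain that bind adhesion molecules and extracellular matrix, and the beta chain decides which alpha chains can reach the surface. Adipose Treg cells, ILC2 and macrophages are long-lived residents of VAT, while monocytes, neutrophils and naive lymphocytes are renewed from the blood.

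After filtering for at least 500 gene UMIs, at least 200 genes and at most 25% mitochondrial UMIs, 12474 cells of the NW library (median depth 5092 UMIs) and 12724 of the ABX library (3845.5 UMIs) were left. 196 barcode sequences occurred in both libraries, where 179.4 were expected from the number of possible cell labels. Clustering was done without the 37 receptors, and classes were named "-like" from marker lists that hold none of them. 20 classes had at least 50 cells in each library and were compared. A monocyte-like name rested on only 3 of 9 listed markers (Fn1, Ear2 and Lyz1), so that this class is uncertain. The endothelial-like class is uncertain too, although its 7 endothelial markers were all detected. These summed to 1206 CPM in NW and 2537 CPM in ABX, against 15422 and 11776 CPM of macrophage markers. Its receptor levels therefore may not be those of endothelium alone. A cluster led by Ccl12, Il1b and Cxcl2, beside the member Cx3cr1, expressed 10 of 11 macrophage markers and is called the Ccl12-Il1b cluster. A cluster led by Il18r1 and Tcrg-C2 had surface TCR beta and is called by these genes. The dissociation stress genes (20 such as Fos and Jun) summed to between 9249 and 41898 CPM in NW and between 7494 and 39853 CPM in ABX, and were lower in ABX in 20 of 20 classes. Their part in the differences between the libraries was not tested.

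Each receptor had its own distribution over VAT cell classes. 28 of the 37 genes had a highest class whose level lay above that of the next class by counting intervals, and 28 had the same highest class in NW and ABX. The highest class changed with the library for Ccr2, Ccr6, Ccr9, Cxcr6, Ccrl2, Gpr183, Itga6, Itgal and Itgb1. The 9 genes whose highest and next class overlapped were Ccr2, Ccr6, Cxcr6, S1pr4, Gpr183, Itga6, Itgal, Itgb1 and Itgb7. Over both libraries, Treg-like and neutrophil-like cells were each the highest class for 6 receptors, Treg-like cells for Ccr3, Ccr4, Ccr9, S1pr4, Itgav and Itgb8 and neutrophil-like cells for Ccr1, Cxcr2, Cxcr4, Ccrl2, Itgam and Itgb2. NK-like cells led for 5, and macrophage-like, monocyte-like, cDC2-like, CD8 T-like and both conventional CD4 T-like classes for none. In Treg-like cells 22 of the 37 receptors had a UMI in at least 10% of cells, against 24 in the proliferating cluster, 11 in macrophage-like cells and 10 in neutrophil-like cells. These shares depend on depth, since the median cell held 3276 UMIs in NW Treg-like cells, 5760 in NW macrophage-like cells and 1821 in NW neutrophil-like cells. Cell shares are therefore also given for cells thinned to 1000 UMIs, leaving out the 249 NW and 376 ABX cells with fewer.

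**Figure D1:**
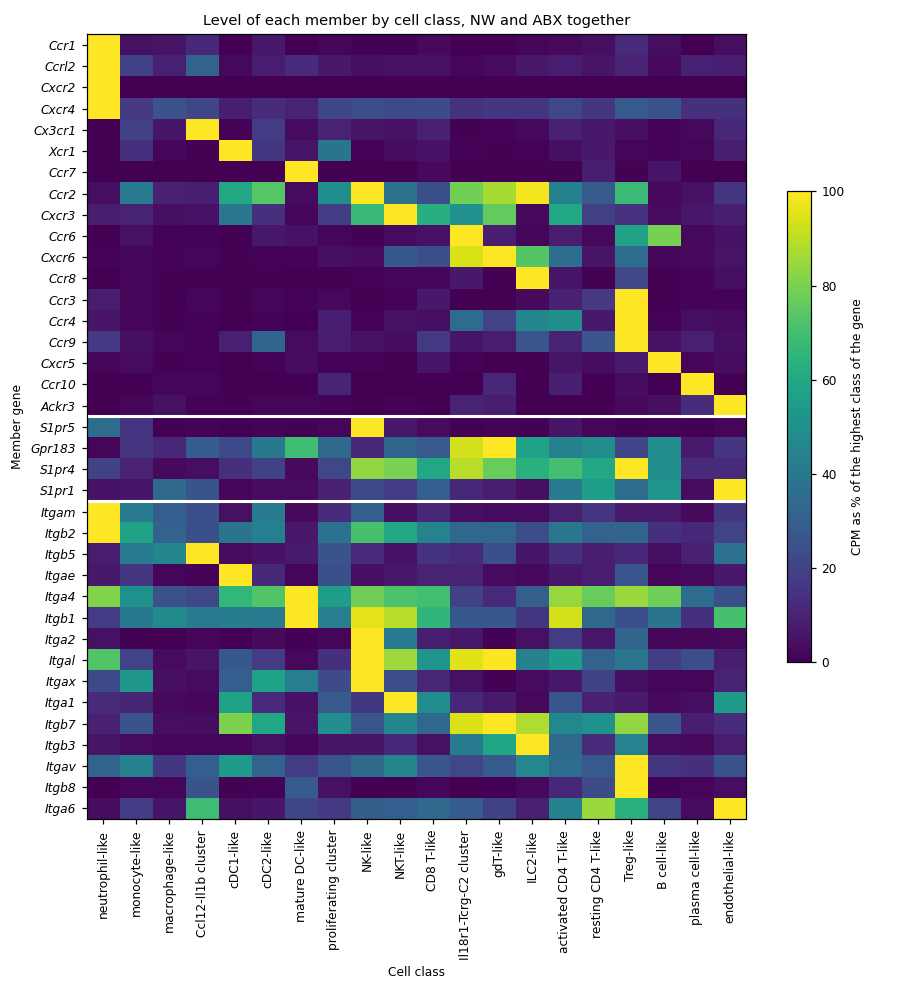
Level of the 37 homing receptors (rows; chemokine receptors, then S1P and oxysterol receptors, then integrins, separated by white lines) in 20 cell classes (columns), NW and ABX cells together, as CPM in percent of the highest class of each gene. Cxcr2, Ccr7 and Cxcr5 each light up in 1 class (neutrophil-like, mature DC-like and B cell-like), while Itgb1, Itgb2, Itga4 and Cxcr4 are spread over most classes.

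Neutrophil-like cells, 61 NW and 53 ABX cells, had the highest levels of Cxcr2 and Ccr1, while no Cx3cr1 UMI was found in them, which allows up to 13.3 CPM (3 UMIs of the class total). Cxcr2, the receptor for neutrophil-attracting CXC chemokines, reached 4283 CPM in NW and 4381 CPM in ABX and was found in 97.4% of the cells, or 94.4% after thinning. The next class, monocyte-like, had 6.44 CPM, and 0.354% of macrophage-like and 0.394% of B cell-like cells held a Cxcr2 UMI. Ccr1, a receptor for CCL3, CCL5 and other inflammatory chemokines, stood at 1190.1 CPM in NW and 1106 CPM in ABX in neutrophil-like cells, 8.46 times the next class, which was Treg-like with 137 CPM, and the Ccl12-Il1b cluster had 135. Cxcr4, the CXCL12 receptor that retains cells in bone marrow and tissue, was detected in each of the 20 compared classes, from 162 CPM in cDC1-like to 1942 CPM in neutrophil-like cells, with both libraries close at 1887 CPM in NW and 2019 CPM in ABX. Ccrl2, a non-signalling receptor that presents chemerin, had 781 CPM in NW and 64.4 CPM in ABX in neutrophil-like cells, so that these were its highest class in NW, whereas in ABX the Ccl12-Il1b cluster was highest with 161 CPM.

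Ccr2, the receptor for CCL2 and the key to monocyte exit from bone marrow, was not highest in monocyte-like cells. NK-like cells had 1409 CPM in NW and 1400.3 CPM in ABX, ILC2-like cells 1474 CPM in NW and 1314 CPM in ABX, and the order of these classes changed with the library. gdT-like cells and the Il18r1-Tcrg-C2 cluster followed with 1222 and 1104 CPM, cDC2-like cells had 1032, Treg-like 957, cDC1-like 839 and monocyte-like 576 CPM. The lowest of the 20 compared classes was B cell-like with 36.0 CPM in 7.57% of cells, and macrophage-like cells had 129. Thus 65.2% of ILC2-like cells and 66.3% of NK-like cells carried a Ccr2 UMI at 1000 UMIs, against 29.7% of monocyte-like and 8.92% of macrophage-like cells. Cx3cr1, the fractalkine receptor of resident and patrolling myeloid cells, had its highest level in the Ccl12-Il1b cluster, 434 CPM in NW and 419.8 CPM in ABX, 5.30 times monocyte-like and well above the macrophage-like 25.4 CPM.

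Lymphocyte receptors separated the resident subsets. Ccr3, the eotaxin receptor known from eosinophils, stood at 184 CPM in NW and 140.0 CPM in ABX in Treg-like cells, and next came resting CD4 T-like cells with 28.9 CPM. In Treg-like cells 15.8% carried a Ccr3 UMI at equal depth, against 0.0839% of macrophage-like cells. Ccr4, a receptor for CCL17 and CCL22, was also highest there with 74.7 CPM in NW and 67.0 CPM in ABX, followed by activated CD4 T-like with 36.3 and ILC2-like with 33.2 CPM. Ccr8, which binds CCL1 and CCL8 and marks tissue Treg and type 2 cells, was instead highest in ILC2-like cells, at 193 CPM in NW and 118 CPM in ABX, 4.66 times the Treg-like level of 32.1 CPM. Ccr9, the gut-homing receptor for CCL25, was highest in Treg-like cells over both libraries, 188 CPM, but with 240.3 CPM in NW and 20.3 CPM in ABX, and in ABX ILC2-like cells were highest with 60.9 CPM.

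Ccr6, the CCL20 receptor of IL-17-producing and B lymphocytes, was highest in the Il18r1-Tcrg-C2 cluster with 50.8 CPM (38.1 to 66.2), close to B cell-like with 40.3 (35.4 to 45.8), and low in gdT-like cells with 4.24. Treg-like cells had 16.3 CPM in NW and 71.0 CPM in ABX, which made them the highest class in ABX, above the Il18r1-Tcrg-C2 cluster with 56.7 CPM, with overlapping intervals. Cxcr6, the CXCL16 receptor of tissue-resident lymphocytes, was at 1040.0 CPM in gdT-like cells, 980.5 in the Il18r1-Tcrg-C2 cluster and 760.2 in ILC2-like cells, but only 29.4 in NK-like cells, so that 57.5% of gdT-like and 2.46% of NK-like cells carried a UMI at equal depth. Cxcr3, the receptor for interferon-induced CXCL9 and CXCL10, led in NKT-like cells with 302 CPM in NW and 337 CPM in ABX and was also found in 54.8% of cDC1-like cells, at 128 CPM. Ccr10, known from IgA plasma cells, was rare. It had 103 UMIs in all, and plasma cell-like cells had 17.7 CPM in NW and 11.9 CPM in ABX with a UMI in 10.4% of cells, against 0.0966% of macrophage-like cells.

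Ccr7, Cxcr5 and Xcr1 had their highest levels in mature DC-like, B cell-like and cDC1-like cells, 12.2, 13.5 and 2.57 times those of the next class. Ccr7 reached 2127 CPM in NW and 1925 CPM in ABX in mature DC-like cells, the class of migratory dendritic cells, and was found in 74.4% of them at equal depth. Resting CD4 T-like cells with 170.4 and B cell-like cells with 118 CPM followed, and cDC1-like and cDC2-like cells had 2.95 and 6.29. Cxcr5, the receptor for the follicle chemokine CXCL13, had 306 CPM in NW and 231 CPM in ABX in B cell-like cells. Xcr1, through which cross-presenting dendritic cells find XCL1-secreting NK and T cells, had 459 CPM in NW and 445 CPM in ABX in cDC1-like cells, with a UMI in 33.0% of them at equal depth against 0.482% of macrophage-like cells. The proliferating cluster, with 176 CPM of Xcr1, was next. Ackr3, a scavenger of CXCL12, was highest among the compared classes in endothelial-like cells with 37.6 CPM, but the fibroblast-like cells, 5 in NW and 90 in ABX and so not compared, had 201 CPM.

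12 of the 37 genes lie on chromosome 9, and 6 of them, Ccr9, Cxcr6, Xcr1, Ccr1, Ccr3 and Ccr2 in this order, lie within 435119 bases (chr9:123678439-124113557, GENCODE M21 on GRCm38). These neighbours had different highest classes, gdT-like for Cxcr6, cDC1-like for Xcr1, neutrophil-like for Ccr1, NK-like for Ccr2 and Treg-like for both Ccr9 and Ccr3. Promoter windows are shown for Cxcr2, Xcr1, Ccr8 and S1pr5, chosen by hand among the receptors highest in neutrophil-, cDC1-, ILC2- and NK-like cells. That of Ccr9, the receptor that differed most between the libraries in Treg-like cells, is added. They are given as in RefSeq on GRCm38.p6, from 250 bases before to 50 bases after the transcript start, 5′ to 3′ on the gene's strand. 28 of the 37 genes had an entry. Their positions are chr1:74153744-74154043, plus strand for Cxcr2, chr9:123861980-123862279, minus strand for Xcr1, chr9:120091883-120092182, plus strand for Ccr8, chr9:21248394-21248693, minus strand for S1pr5 and chr9:123766961-123767260, plus strand for Ccr9, whose GENCODE gene model begins further upstream.
Cxcr2: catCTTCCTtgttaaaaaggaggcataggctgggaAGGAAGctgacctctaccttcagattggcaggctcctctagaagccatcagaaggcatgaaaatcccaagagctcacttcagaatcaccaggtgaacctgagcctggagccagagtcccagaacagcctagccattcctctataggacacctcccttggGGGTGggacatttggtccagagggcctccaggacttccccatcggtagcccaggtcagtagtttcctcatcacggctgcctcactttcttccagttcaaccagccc
Xcr1: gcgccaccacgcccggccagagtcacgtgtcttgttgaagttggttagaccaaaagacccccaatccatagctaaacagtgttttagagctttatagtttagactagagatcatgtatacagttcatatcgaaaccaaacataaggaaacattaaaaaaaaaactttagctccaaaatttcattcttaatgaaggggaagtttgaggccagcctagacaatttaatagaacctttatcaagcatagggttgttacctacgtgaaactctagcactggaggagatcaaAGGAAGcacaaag
Ccr8: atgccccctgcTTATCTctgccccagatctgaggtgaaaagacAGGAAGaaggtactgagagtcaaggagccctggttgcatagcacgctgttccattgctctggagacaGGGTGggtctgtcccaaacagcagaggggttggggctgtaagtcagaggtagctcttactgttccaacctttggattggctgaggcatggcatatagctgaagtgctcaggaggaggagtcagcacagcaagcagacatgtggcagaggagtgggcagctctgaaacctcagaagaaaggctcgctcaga
S1pr5: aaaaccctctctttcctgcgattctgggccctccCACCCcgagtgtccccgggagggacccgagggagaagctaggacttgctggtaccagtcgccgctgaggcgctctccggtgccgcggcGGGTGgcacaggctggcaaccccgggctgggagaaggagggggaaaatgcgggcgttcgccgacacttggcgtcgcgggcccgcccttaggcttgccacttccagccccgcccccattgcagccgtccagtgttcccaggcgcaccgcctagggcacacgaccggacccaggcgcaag
Ccr9: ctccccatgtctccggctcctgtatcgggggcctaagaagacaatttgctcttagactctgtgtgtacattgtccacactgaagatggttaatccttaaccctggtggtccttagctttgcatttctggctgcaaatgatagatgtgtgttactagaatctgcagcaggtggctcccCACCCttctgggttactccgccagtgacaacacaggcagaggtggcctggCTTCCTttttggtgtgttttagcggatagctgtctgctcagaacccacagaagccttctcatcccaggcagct
Capitals mark matches, on either strand, to 8 short motifs that were searched. The letters AGGAAG, as in binding sites of ETS factors, occurred in 35.4% of the 32851 promoters of the table and matched 2 times in the Cxcr2 window and 1 time each in those of Xcr1, Ccr8 and Ccr9. The letters CACCC, as in sites of KLF factors, occurred in 57.5% of promoters and matched 2 times in the S1pr5 window and 1 time each in those of Cxcr2, Ccr8 and Ccr9. The letters AGATAA, as in GATA factor sites, were present in 11.2% of promoters and matched 1 time, in the Ccr8 window. The other motifs had no match in these windows. For AP-1 the letters TGANTCA were searched, which 7.81% of promoters held. For RUNX factors the letters were TGTGGT, in 16.8% of promoters. For T-box factors the letters were AGGTGTGA, in 1.28% of promoters. For C/EBP factors the letters were TTGCNNAA, in 10.8% of promoters, and the longer IRF motif was in 3.44%. A match describes the letters of a window and no more.

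The S1P receptors divided lymphocytes, macrophages and endothelial-like cells. S1pr1, which lets lymphocytes leave tissue toward S1P-rich lymph and keeps endothelium tight, was highest in endothelial-like cells at 398 CPM in NW and 495 CPM in ABX. Resting CD4 T-like and B cell-like cells followed with 253 and 237 CPM, while ILC2-like cells had 19.3, gdT-like cells 38.1 and cDC1-like cells 5.66. At equal depth 26.3% of resting CD4 T-like cells carried an S1pr1 UMI, against 1.43% of ILC2-like cells. Macrophage-like cells had 157 CPM. S1pr4, a lymphocyte-biased family member, ran the other way in macrophage-like cells, where it had 4.29 CPM, the lowest of the compared classes, and stood between 88.6 and 180.2 CPM in B cell-like and all T, NK and ILC2-like classes. S1pr5, needed for NK cell exit from bone marrow and lymph node, was 62.3 CPM in NK-like cells, with 67.6 CPM in NW and 57.7 CPM in ABX, and next came neutrophil-like cells with 22.2 CPM. Gpr183 (EBI2), which positions B, T and dendritic cells along oxysterol gradients, was highest in gdT-like cells with 349 CPM and in the Il18r1-Tcrg-C2 cluster with 325, whose intervals overlap, and mature DC-like cells had 242.

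Among integrins, Itgb2, the beta chain of the leukocyte integrins, was found in all 20 compared classes, from 69.6 CPM in mature DC-like to 1097 CPM in neutrophil-like cells. Its alpha partners were distributed unequally. Itgal, which makes LFA-1, stood at 617 CPM in NK-like and 613 CPM in gdT-like cells but at 18.8 in macrophage-like and 13.6 in mature DC-like cells. Itgam, which encodes CD11b, led in neutrophil-like cells with 924 CPM, followed by monocyte-like, cDC2-like, NK-like and macrophage-like cells between 276 and 381 CPM. Itgax, which encodes CD11c, used to define dendritic cells, was highest in NK-like cells with 402 CPM in NW and 465 CPM in ABX, above cDC2-like with 254, monocyte-like with 230.4, mature DC-like with 186 and cDC1-like with 130.0. Across the 20 classes, which share 2 libraries and differ in depth, Spearman's rho between Itgb2 and its partners was 0.583 for Itgal, 0.502 for Itgam and 0.586 for Itgax. In the same cell, UMIs of Itgb2 and Itgal were seen together in 72.3% of NK-like, 60.8% of cDC1-like and 5.34% of macrophage-like cells.

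Itgb7 pairs with Itga4 to bind MAdCAM-1 in gut vessels and with Itgae to bind E-cadherin. It was highest in gdT-like cells with 625 CPM, the Il18r1-Tcrg-C2 cluster with 592 and ILC2-like cells with 551, but these classes were low in both partners, with Itga4 at 80.5, 131 and 201 CPM and Itgae at 4.24, 14.1 and 2.81 CPM. Across classes rho was -0.0917 between Itgb7 and Itga4 and 0.525 between Itgb7 and Itgae. The cDC1-like class held each of these subunits, with Itgb7 at 502, Itga4 at 440.3 and Itgae, which encodes CD103, at 146 CPM in NW and 129.7 CPM in ABX. There 77.2% of cells carried both Itgb7 and Itga4 UMIs and 39.5% both Itgb7 and Itgae UMIs. Mature DC-like cells showed the reverse of gdT-like cells, with the highest Itga4 level of 663 CPM, the highest Itgb1 of 1009 and Itgb7 at 32.6.

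**Figure D2:**
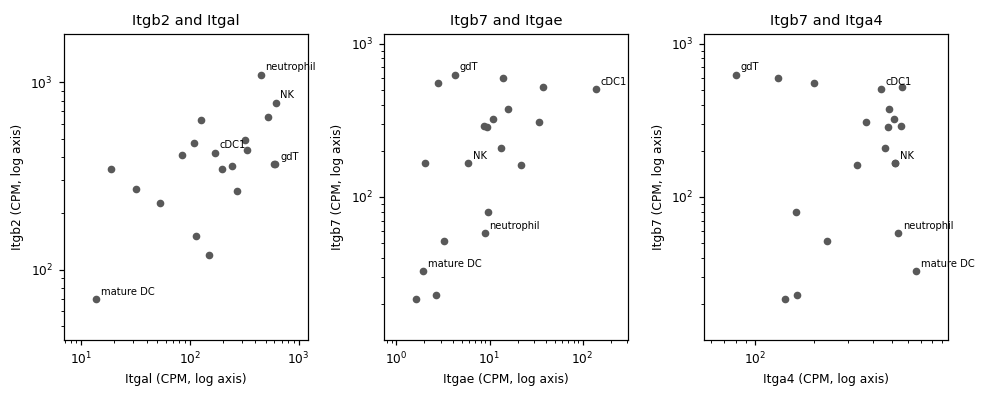
Levels of a beta chain against an alpha partner in CPM on log axes, 1 point per cell class (20 classes, NW and ABX together), for Itgb2 with Itgal, Itgb7 with Itgae and Itgb7 with Itga4. Itgb2 and Itgal rise together across classes, whereas gdT-like cells have much Itgb7 with little Itga4 and mature DC-like cells the reverse.

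Itgb1 pairs with most collagen, laminin and fibronectin binding alpha chains. Itga1, a collagen receptor of tissue-resident lymphocytes, was highest in NKT-like cells with 222 CPM in NW and 221 CPM in ABX, whereas Itga2, known as CD49b or DX5 and used to mark circulating NK cells, was highest in NK-like cells with 206 CPM in NW and 206 CPM in ABX. NK-like cells had 35.7 CPM of Itga1 and NKT-like cells 84.5 CPM of Itga2. The NKT-like class had a median of only 11 surface TCR beta UMIs per cell, close to the 8 of NK-like cells, so that its name is uncertain. Itga6, a laminin receptor, was highest in endothelial-like and resting CD4 T-like cells, 127 and 108 CPM with overlapping intervals, and stood at 87.2 in the Ccl12-Il1b cluster against 7.32 in macrophage-like cells. Itgav and its beta partners bind vitronectin and latent TGF-beta. Itgav was highest in Treg-like cells, 128 CPM in NW and 112 CPM in ABX, as was Itgb8 with 25.9 CPM and a UMI in 6.63% of cells. Itgb3 was highest in ILC2-like cells, 403 CPM in NW and 439 CPM in ABX, where 33.2% carried a UMI at equal depth against 0.558% of macrophage-like cells. Among the compared classes Itgb5 led with 109 CPM in the Ccl12-Il1b cluster, 50.3 in macrophage-like and 45.3 in monocyte-like cells, against 3.14 in cDC1-like cells, and the few fibroblast-like cells had 186 CPM.

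Receptors also varied within a class. The 2 large macrophage-like clusters, one led by Retnla and Cd163 (4846 cells) and one by Lyve1, Cd209f and Fcna (4355 cells), had Ccr2 at 166 and 93.9 CPM and Itgax at 21.5 and 13.5 CPM, and Itgam at 268 and 284. Compared with these, the Ccl12-Il1b cluster had more Cx3cr1 (427 against 24.6 and 25.9 CPM), Ccr1 (135 against 58.0 and 67.4), Ccrl2 (153 against 47.7 and 36.3) and Itga6 (87.2 against 7.34 and 7.42). Of the 2 B cell-like clusters, the one led by Ighd, Fcer2a and Cr2 had more Ccr7 (219 against 58.8 CPM), Cxcr4 (759.9 against 345) and Ccr6 (64.3 against 26.2), and the other more Itgb1 (534 against 137 CPM), Ccr1 (57.0 against 14.5) and Ccr9 (13.4 against 0.453). A cluster of 41 cells led by Prg4 and Alox15, without a name, had Itgam at 1604 and Itga6 at 866 CPM, above every class in the case of both genes.

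The levels were then compared between ABX and NW within each class, as the log2 ratio of ABX to NW CPM with its 95% counting interval in parentheses. A gene was counted as past 1.5-fold where its ratio reached 1.5 in either direction and at least 50 UMIs were present in the class over both libraries. Of 423 pairs of a receptor and a class with enough UMIs, 99 (23.4%) were past 1.5-fold, 33 higher and 66 lower in ABX, against 10.6% of 145233 such pairs over all genes. With at least 200 UMIs these shares were 14.3% of 266 pairs and 4.3% of 71069 pairs. Cxcr4, Itgav and Ccr10 were past 1.5-fold in none of the 20, 16 and 1 classes in which they had enough UMIs. 36 of the 99 pairs, of 22 receptors, stayed past 1.5-fold in the same direction in each alternative processing that gave a value, 11 of them higher and 25 lower in ABX. This was read from the ratio alone, also for pairs with fewer than 200 UMIs, and another minimum of UMIs leaves the ratio as it is. The other 63 depended on at least 1 setting. The alternatives were run for the receptors only, so the share of such lasting pairs over all genes is not known.

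**Figure D3:**
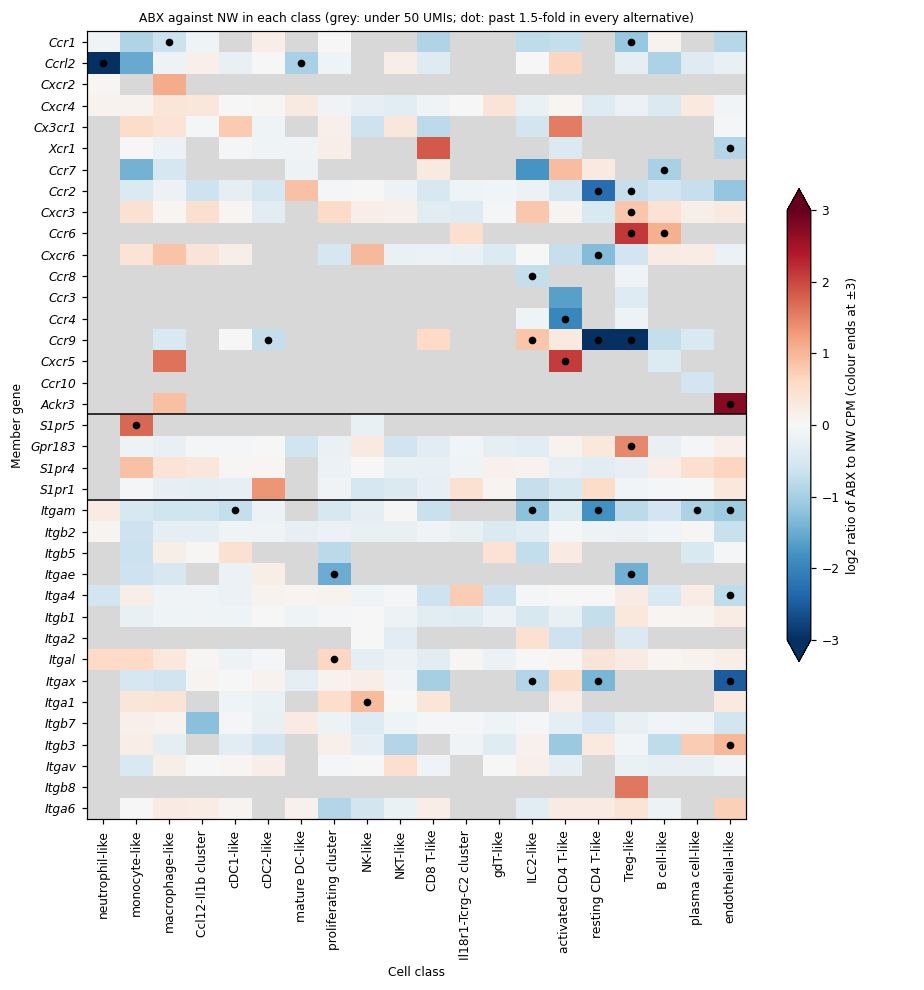
Log2 ratio of ABX to NW CPM for each receptor (rows, as in the plot of levels) in each of 20 classes (columns). Blue is lower and red higher in ABX, grey marks pairs with fewer than 50 UMIs, and black dots mark the 36 pairs past 1.5-fold in every alternative run. Most dots lie in the columns of Treg-like (7), endothelial-like (6), resting CD4 T-like (5) and ILC2-like (4) cells. In these classes 16.3%, 18.2%, 25.8% and 8.25% of all genes tested were past 1.5-fold. Itgam is blue in most classes.

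Over all cells together, where the ratio also holds the change in the shares of the classes, 7 of the 37 members with at least 50 UMIs were past 1.5-fold, 3 higher and 4 lower in ABX, where 15.9% of all genes tested were. Cxcr5 was higher, at 9.03 CPM in NW and 21.1 CPM in ABX, as was Ccr6 with 1.74 CPM in NW and 5.87 CPM in ABX and Ackr3 with 2.01 CPM in NW and 6.89 CPM in ABX. When the classes were given the same shares in both libraries, the log2 ratio of Cxcr5 went from 1.22 to -0.025. B cell-like cells, its highest class, accounted for 2.73% of the NW library and 7.30% of the ABX library. Ccr3 was lower, 7.30 CPM in NW and 2.58 CPM in ABX, and so were Ccr7, 52.7 CPM in NW and 31.7 CPM in ABX, Itgam, 222 CPM in NW and 131 CPM in ABX, and Ccr1, 55.8 CPM in NW and 36.4 CPM in ABX. Treg-like cells, the highest class of Ccr3, accounted for 3.17% and 1.27% of the NW and ABX libraries, and mature DC-like cells, that of Ccr7, 1.43% and 0.589%. Within Treg-like cells the Ccr3 ratio was -0.39 (-0.79 to -0.0097) and within mature DC-like cells the Ccr7 ratio was -0.14 (-0.24 to -0.045), both under 1.5-fold. With the same class shares in both libraries the log2 ratios over all cells went from -1.50 to -0.74 for Ccr3, which stayed past 1.5-fold, and from -0.73 to -0.31 for Ccr7, which did not. Those of Ccr6, Ackr3, Itgam and Ccr1 became 1.17, 1.67, -0.55 and -0.50.

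Treg-like cells of the ABX library (396 NW and 162 ABX cells) had less Ccr9, Ccr1, Ccr2 and Itgae and more Gpr183, Ccr6 and Cxcr3 than those of NW. In this class 9 of the 26 members with at least 50 UMIs were past 1.5-fold, 4 higher and 5 lower in ABX, where 16.3% of all genes tested were. Ccr9 had 383 UMIs in 76 NW cells and 10 UMIs in 6 ABX cells, or 240.3 and 20.3 CPM, a ratio of -3.57 (-4.64 to -2.67). At equal depth 12.6% of NW and 1.97% of ABX Treg-like cells carried a Ccr9 UMI. Ccr1 had 250 UMIs in 137 NW cells and 35 UMIs in 22 ABX cells, or 157 and 71.0 CPM, a ratio of -1.14 (-1.70 to -0.63). Ccr2 had 1676 UMIs in 322 NW cells and 321 UMIs in 93 ABX cells, or 1051 and 651 CPM, a ratio of -0.69 (-0.87 to -0.52), and 56.9% of NW and 39.0% of ABX cells carried it at equal depth. Itgae had 70 UMIs in 32 NW cells and 8 UMIs in 6 ABX cells, or 43.9 and 16.2 CPM, a ratio of -1.44 (-2.70 to -0.38). Ccr9, Ccr1, Ccr2 and Itgae were lower in ABX in each alternative run.

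Gpr183 went the other way in Treg-like cells, with 82 UMIs in 41 NW cells and 69 UMIs in 34 ABX cells, or 51.4 and 140.0 CPM, a ratio of 1.44 (0.96 to 1.92). Ccr6 had 26 UMIs in 16 NW cells and 35 UMIs in 18 ABX cells, or 16.3 and 71.0 CPM, a ratio of 2.12 (1.35 to 2.91), and Cxcr3 had 62 UMIs in 34 NW cells and 34 UMIs in 25 ABX cells, or 38.9 and 69.0 CPM, a ratio of 0.83 (0.18 to 1.45). Itgb8 was also higher, at 17.6 CPM in NW and 52.8 CPM in ABX, on 28 and 26 UMIs, and its ratio of 1.59 (0.76 to 2.41) ranged from 0.35 to 1.68 over the alternatives. Cxcr5, with 11 and 28 UMIs, was too rare to be counted. Other receptors typical of Treg-like cells were under 1.5-fold. Ccr3 had a ratio of -0.39 (-0.79 to -0.0097), Ccr4 -0.16 (-0.76 to 0.41), Ccr8 -0.10 (-1.04 to 0.75), Itgav -0.20 (-0.65 to 0.24) and S1pr4 -0.24 (-0.62 to 0.12), and S1pr1, Itgb7 and Cxcr6 were under 1.5-fold too, S1pr1 with -0.089 (-0.48 to 0.29), Itgb7 with -0.22 (-0.44 to -0.010) and Cxcr6 with -0.58 (-0.86 to -0.30). The 11 macrophage markers summed to 3535 and 3215 CPM in NW and ABX Treg-like cells. The 7 neutrophil markers summed to 619 and 148 CPM, but Cxcl2, a chemokine gene in that list, alone had 522 and 38.6 CPM of these. The 9 ILC2 markers summed to 4139.9 and 2857 CPM and the class's own 7 Treg markers to 5363 and 4420.0 CPM, both lower in ABX like Ccr9, Ccr1, Ccr2 and Itgae. The ILC2 list holds Klrg1, also a leading gene of the Treg-like cluster, so its sum does not stand for ILC2 RNA alone. Higher in ABX were, among others, the 8 gdT markers with 669 and 873 CPM and the 7 NKT markers with 619 and 767 CPM. Gpr183 and Cxcr3, also higher, had gdT-like and NKT-like cells as their highest classes over both libraries. The study reported fewer ST2+ Treg cells in VAT after microbiota depletion, and Treg subsets were not separated here. The part of these markers and subsets in the differences was not tested. Itgam, at 74.0 CPM in NW and 42.6 CPM in ABX, lost its 1.5-fold difference when doublets were left out.

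**Figure D4:**
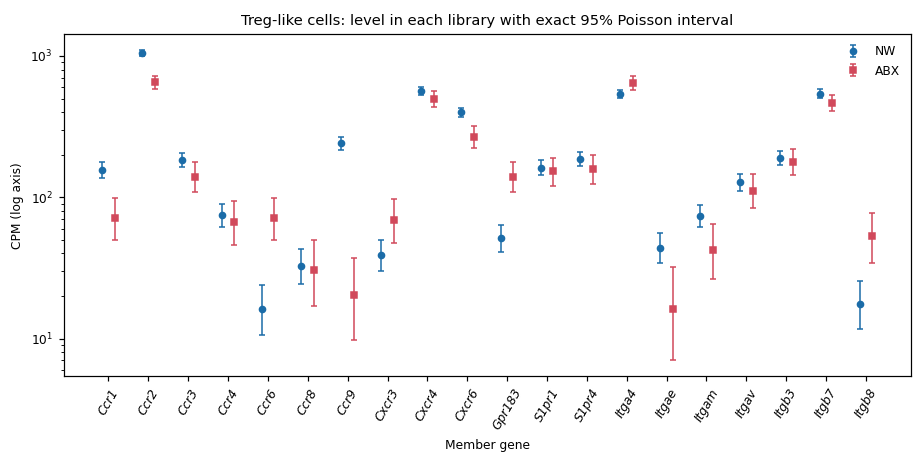
CPM of 20 receptors in Treg-like cells of the NW library (blue circles, 396 cells) and the ABX library (red squares, 162 cells) on a log axis, with exact 95% Poisson intervals for counting error. Ccr9 lies at 240.3 CPM in NW and 20.3 CPM in ABX, Gpr183 and Ccr6 are higher in ABX, and the intervals of Ccr4, Ccr8 and S1pr1 overlap.

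In activated CD4 T-like cells (620 NW and 516 ABX cells) 10 of the 29 members with at least 50 UMIs were past 1.5-fold, 4 higher and 6 lower in ABX, where 9.47% of all genes tested were. Ccr4 had 151 UMIs in 99 NW cells and 32 UMIs in 27 ABX cells, or 54.5 and 14.1 CPM, a ratio of -1.95 (-2.55 to -1.40), and Cxcr5 had 15 UMIs in 10 NW cells and 53 UMIs in 29 ABX cells, or 5.42 and 23.3 CPM, a ratio of 2.10 (1.26 to 3.04). These held in every alternative in which they could be computed. In the same cells the 7 B cell markers summed to 65.7 and 230.4 CPM in NW and ABX and the 7 plasma cell markers to 57.4 and 237 CPM, higher in ABX like Cxcr5, whose highest class was B cell-like. The 9 ILC2 markers summed to 1563 and 961 CPM and the 7 Treg markers to 849 and 645 CPM, lower in ABX like Ccr4, which Treg-like and ILC2-like cells also carry. The part of these markers was not tested. Itgb3, with 191 CPM in NW and 88.4 CPM in ABX, Ccr3, with 23.1 CPM in NW and 7.48 CPM in ABX, and Cxcr6, with 455 CPM in NW and 283 CPM in ABX, were lower in ABX as well, but Ccr3 turned to 0.16 when cells were clustered by RNA alone. Cx3cr1 was higher, 20.9 CPM in NW and 60.7 CPM in ABX, and turned to -0.47 without the cells that held 10 or more UMIs of the macrophage complement genes C1qa, C1qb and C1qc. Ccrl2, 29.6 CPM in NW and 46.6 CPM in ABX, turned to -0.090 in the same way. Ccr7, at 10.1 CPM in NW and 19.3 CPM in ABX, had a ratio of 0.94 (0.22 to 1.67), and that of Ccr1 was -0.72 (-1.31 to -0.14) and that of Itga2 -0.61 (-1.07 to -0.16).

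In resting CD4 T-like cells, a small class of 68 NW and 144 ABX cells, 6 of the 18 members with at least 50 UMIs were past 1.5-fold, 0 higher and 6 lower in ABX, where 25.8% of all genes tested were. Ccr2 had 302 UMIs in 33 NW cells and 96 UMIs in 24 ABX cells, or 768 and 157 CPM, a ratio of -2.29 (-2.64 to -1.95). Ccr9 had 46 UMIs in 5 NW cells and 4 UMIs in 4 ABX cells, or 117 and 6.55 CPM, a ratio of -4.16 (-6.09 to -2.70). Cxcr6, Itgam and Itgax had ratios of -1.30 (-2.14 to -0.49), -1.81 (-2.36 to -1.28) and -1.36 (-2.04 to -0.70), and Itgb1 one of -0.73 (-1.04 to -0.42). In the same cells the 11 macrophage markers summed to 4065 and 1649.6 CPM in NW and ABX, the 8 cDC2 markers to 1671 and 518 CPM, the 9 ILC2 markers to 761 and 219.5 CPM and the 7 Treg markers to 1152 and 403 CPM, whereas the class's own 8 markers went from 2518 to 4000.4 CPM. Other lists were higher in ABX, among them the 7 plasma cell markers with 43.2 and 1243.4 CPM and the 7 B cell markers with 15.3 and 170.4 CPM. The part of all these markers in the 6 differences was not tested. S1pr1, at 198 CPM in NW and 288 CPM in ABX, and Ccr7, at 150.1 CPM in NW and 183 CPM in ABX, the receptors of recirculating naive cells, had ratios of 0.54 (0.15 to 0.94) and 0.29 (-0.18 to 0.77).

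ILC2-like cells (757 NW and 1251 ABX cells) had Ccr2, Cxcr6, Itgb3 and Itgb7 within 1.5-fold between the libraries, with ratios of -0.17 (-0.22 to -0.11), 0.0077 (-0.067 to 0.082), 0.12 (0.024 to 0.23) and -0.061 (-0.15 to 0.026). In total 9 of the 26 members with at least 50 UMIs were past 1.5-fold, 2 higher and 7 lower in ABX, where 8.25% of all genes tested were. Ccr8, the receptor that marked them, had 640 UMIs in 292 NW cells and 533 UMIs in 312 ABX cells, or 193 and 118 CPM, a ratio of -0.71 (-0.88 to -0.54), and 15.4% of NW and 10.1% of ABX cells carried it at equal depth. Ccr9 had 113 UMIs in 40 NW cells and 275 UMIs in 103 ABX cells, or 34.0 and 60.9 CPM, a ratio of 0.84 (0.52 to 1.17), opposite in direction to that in Treg-like cells, and the difference between the classes was not tested. Itgam, at 39.7 CPM in NW and 16.8 CPM in ABX, and Itgax, at 16.3 CPM in NW and 8.85 CPM in ABX, were lower in ABX, as were the macrophage markers with 2838 and 1954 CPM, and their part was not tested. S1pr1 was low in both libraries and lower in ABX, 24.7 CPM in NW and 15.3 CPM in ABX, but under 1.5-fold when doublets were left out or cells were clustered by RNA alone. Ccr1 had a ratio of -0.75 (-1.32 to -0.19), Ccr7 one of -1.78 (-2.54 to -1.06), Cxcr3 one of 0.81 (-0.012 to 1.69) and Itgb5 one of -0.73 (-1.59 to 0.12), each on 112 UMIs or fewer.

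In CD8 T-like cells 7 of the 23 members with at least 50 UMIs were past 1.5-fold, 2 higher and 5 lower in ABX, where 9.64% of all genes tested were. Only Itga4, the fibronectin and VCAM-1 binding chain, had more than 300 UMIs among them, with 511 UMIs in 133 NW cells and 566 UMIs in 195 ABX cells, or 593 and 384 CPM, a ratio of -0.63 (-0.80 to -0.45). None of the 7 was past 1.5-fold in every alternative, and Xcr1, Cx3cr1, Itgax and Ccr1 changed direction in at least 1, in a class whose macrophage markers summed to 7401 and 8133 CPM. Ccr9 and Itgam had ratios of 0.59 (-0.16 to 1.39) and -0.67 (-1.04 to -0.29). In NK-like cells 3 of the 21 members with at least 50 UMIs were past 1.5-fold, 2 higher and 1 lower in ABX, where 6.95% of all genes tested were. Itga1 there had 28 UMIs in 14 NW cells and 63 UMIs in 33 ABX cells, or 23.7 and 46.0 CPM, a ratio of 0.96 (0.30 to 1.66), that of Cxcr6 was 0.97 (0.23 to 1.74) and that of Cx3cr1 -0.61 (-1.42 to 0.18), while S1pr5 and Itga2 stayed within 1.5-fold at -0.23 (-0.69 to 0.24) and -0.0008 (-0.25 to 0.25). In NKT-like cells 2 of the 21 members with at least 50 UMIs were past 1.5-fold, 0 higher and 2 lower in ABX, where 7.46% of all genes tested were, namely Itgb3 with -0.88 (-1.36 to -0.40) and Gpr183 with -0.59 (-0.91 to -0.28). In gdT-like cells 1 of the 15 members with at least 50 UMIs was past 1.5-fold, 0 higher and 1 lower in ABX, where 9.56% of all genes tested were, namely Itga4 with -0.62 (-1.11 to -0.13). In the Il18r1-Tcrg-C2 cluster 1 of the 14 members with at least 50 UMIs was past 1.5-fold, 1 higher and 0 lower in ABX, where 13.0% of all genes tested were, again Itga4 but in the other direction, with 0.76 (0.19 to 1.36).

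B cell-like cells (340 NW and 929 ABX cells) had less Ccr7 and more Ccr6 in ABX. In all 5 of the 22 members with at least 50 UMIs were past 1.5-fold, 1 higher and 4 lower in ABX, where 9.08% of all genes tested were. Ccr7 had 307 UMIs in 145 NW cells and 396 UMIs in 231 ABX cells, or 182 and 92.8 CPM, a ratio of -0.98 (-1.19 to -0.76), and 21.6% of NW and 10.9% of ABX cells carried it at equal depth. Within the cluster led by Ighd and Fcer2a its ratio was -1.16 (-1.43 to -0.90) and within the other B cell-like cluster -0.43 (-0.84 to -0.0097). Ccr6 had 38 UMIs in 26 NW cells and 202 UMIs in 132 ABX cells, or 22.6 and 47.3 CPM, a ratio of 1.07 (0.56 to 1.61), and 0.69 (0.087 to 1.33) and 1.92 (0.93 to 3.10) within these clusters. Cxcr5 had a ratio of -0.41 (-0.56 to -0.25), S1pr1 -0.059 (-0.23 to 0.11) and Cxcr4 -0.43 (-0.54 to -0.32), all under 1.5-fold. The 5 erythrocyte markers summed to 0 and 835 CPM in NW and ABX B cell-like cells and the macrophage markers to 2831 and 2071 CPM, and their part was not tested. Ccr9, Ccrl2 and Itgb3, on 51, 58 and 75 UMIs, had ratios of -0.71 (-1.57 to 0.18), -0.94 (-1.74 to -0.13) and -0.76 (-1.46 to -0.040). In plasma cell-like cells 3 of the 19 members with at least 50 UMIs were past 1.5-fold, 1 higher and 2 lower in ABX, where 10.9% of all genes tested were. These were Ccr2 with -0.69 (-1.01 to -0.38), Itgam with -0.96 (-1.49 to -0.43) and Itgb3 with 0.77 (-0.14 to 1.75), and Ccr10 had a ratio of -0.57 (-1.26 to 0.12).

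In macrophage-like cells, the largest class with 5147 NW and 4174 ABX cells, 7 of the 29 members with at least 50 UMIs were past 1.5-fold, 4 higher and 3 lower in ABX, where 8.99% of all genes tested were. Ccr1 had 2310 UMIs in 1125 NW cells and 858 UMIs in 490 ABX cells, or 72.0 and 45.8 CPM, a ratio of -0.65 (-0.77 to -0.54), and -0.64 (-0.80 to -0.47) and -0.64 (-0.80 to -0.48) within the Retnla-Cd163 and the Lyve1-Cd209f cluster. Itgam, at 315 CPM in NW and 209.8 CPM in ABX, had a ratio of -0.59 (-0.64 to -0.53), just past 1.5-fold, and -0.52 (-0.60 to -0.45) and -0.65 (-0.72 to -0.57) within the clusters. Itgax, at 19.9 CPM in NW and 13.1 CPM in ABX, had -1.21 (-1.52 to -0.91) in the first cluster and 0.096 (-0.24 to 0.42) in the second, a difference that was not tested. Cxcr6, Cxcr5, Ackr3 and Cxcr2 were at most 15.2 CPM in either library. Their ratios were 0.85 (0.61 to 1.10), 1.63 (0.97 to 2.31), 0.91 (0.27 to 1.56) and 1.12 (0.39 to 1.86). The highest classes of Cxcr6, Cxcr5 and Ackr3 took a larger share of the ABX library. That of Cxcr2, neutrophil-like, took a smaller one, 0.489% in NW and 0.417% in ABX. The part of these shares in the ratios was not tested. Itgb2, Itgb1, Itgb5, Cxcr4 and S1pr1 had ratios of -0.28 (-0.33 to -0.24), -0.13 (-0.16 to -0.088), 0.18 (0.069 to 0.30), 0.36 (0.33 to 0.40) and -0.24 (-0.30 to -0.17). In the Ccl12-Il1b cluster 3 of the 20 members with at least 50 UMIs were past 1.5-fold, 0 higher and 3 lower in ABX, where 6.1% of all genes tested were. These were Itgam with -0.60 (-0.75 to -0.46), Ccr2 with -0.62 (-0.82 to -0.42) and Itgb7 with -1.25 (-1.77 to -0.75), while Cx3cr1 had -0.048 (-0.15 to 0.054).

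In the monocyte-like class 9 of the 26 members with at least 50 UMIs were past 1.5-fold, 3 higher and 6 lower in ABX, where 15.1% of all genes tested were. S1pr5 had 20 UMIs in 12 NW cells and 35 UMIs in 21 ABX cells, or 5.17 and 17.2 CPM, a ratio of 1.73 (0.90 to 2.60), and was the only one of the 9 past 1.5-fold in each alternative. Ccrl2, at 121 CPM in NW and 42.3 CPM in ABX, had a ratio of -1.52 (-1.87 to -1.18) but 0.11 when 50 principal components were used. Itgb2, Ccr1, Itgb5, Itgae and Ccr7 had ratios of -0.63 (-0.74 to -0.52), -0.90 (-1.32 to -0.50), -0.65 (-1.07 to -0.24), -0.61 (-1.23 to -0.029) and -1.42 (-2.50 to -0.47), and S1pr4 and Itgal had 0.87 (0.29 to 1.45) and 0.60 (0.38 to 0.81). The macrophage markers in this class summed to 9718 and 6903 CPM in NW and ABX and its own 9 markers to 2065 and 1752 CPM. The 8 NK markers summed to 23.8 and 71.3 CPM, higher in ABX like S1pr5, whose highest class was NK-like, and the 5 erythrocyte markers to 1.03 and 402 CPM. The part of these markers was not tested. In neutrophil-like cells 2 of the 8 members with at least 50 UMIs were past 1.5-fold, 1 higher and 1 lower in ABX, where 23.2% of all genes tested were. Ccrl2 had 103 UMIs in 25 NW cells and 6 UMIs in 4 ABX cells, or 781 and 64.4 CPM, a ratio of -3.60 (-5.08 to -2.43), which held in all alternatives. Itgal had a ratio of 0.59 (-0.0032 to 1.18), and Cxcr2, Ccr1, Cxcr4 and Itgam had 0.033 (-0.15 to 0.22), -0.11 (-0.48 to 0.26), 0.097 (-0.18 to 0.38) and 0.25 (-0.16 to 0.66). The 20 stress genes summed to 41008 CPM in NW and 28668 CPM in ABX neutrophil-like cells, and their part in the Ccrl2 difference was not tested.

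In cDC1-like cells 2 of the 24 members with at least 50 UMIs were past 1.5-fold, 1 higher and 1 lower in ABX, where 4.58% of all genes tested were. Xcr1, Itgae and Itgb7 had ratios of -0.044 (-0.11 to 0.023), -0.17 (-0.29 to -0.043) and -0.045 (-0.11 to 0.019), and the exceptions were Itgam with -0.72 (-0.97 to -0.47), at 48.1 CPM in NW and 29.2 CPM in ABX, and the sparse Cx3cr1 with 0.77 (0.046 to 1.51). In cDC2-like cells 2 of the 22 members with at least 50 UMIs were past 1.5-fold, 1 higher and 1 lower in ABX, where 7.99% of all genes tested were. Ccr9 had 184 UMIs in 33 NW cells and 79 UMIs in 19 ABX cells, or 73.0 and 44.6 CPM, a ratio of -0.71 (-1.11 to -0.32), and S1pr1 one of 1.33 (0.54 to 2.16). In mature DC-like cells 3 of the 12 members with at least 50 UMIs were past 1.5-fold, 1 higher and 2 lower in ABX, where 13.6% of all genes tested were. Ccrl2 had 102 UMIs in 33 NW cells and 20 UMIs in 10 ABX cells, or 68.7 and 35.1 CPM, a ratio of -0.97 (-1.74 to -0.27), Gpr183 one of -0.59 (-0.92 to -0.28) and Ccr2 one of 0.89 (0.24 to 1.53). In the proliferating cluster, which mixes lineages, 4 of the 24 members with at least 50 UMIs were past 1.5-fold, 1 higher and 3 lower in ABX, where 10.8% of all genes tested were. These were Itgae with -1.50 (-2.24 to -0.81), Itgal with 0.63 (0.28 to 0.98), Itga6 with -0.89 (-1.73 to -0.10) and Itgb5 with -0.82 (-1.53 to -0.15).

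In endothelial-like cells, which a CD45 selection should remove, 11 of the 24 members with at least 50 UMIs were past 1.5-fold, 4 higher and 7 lower in ABX, where 18.2% of all genes tested were. Its median cell had 292 surface TCR beta antibody UMIs, against 7 to 46 in the other clusters. Clustering by RNA alone gave 2 endothelial-like clusters of 335 and 41 cells, against 881 cells here. The ABX cells of this class had more endothelial RNA, with the 7 endothelial markers at 1206 and 2537 CPM and the 11 macrophage markers at 15422 and 11776 CPM in NW and ABX, and the 6 fibroblast markers at 120.2 and 501 CPM. Ackr3 had 20 UMIs in 12 NW cells and 168 UMIs in 46 ABX cells, or 9.07 and 60.1 CPM, a ratio of 2.73 (2.06 to 3.48). Itgb3 and Itga6 had ratios of 1.00 (0.51 to 1.51) and 0.72 (0.48 to 0.97), and S1pr4 one of 0.64 (0.049 to 1.25). The leukocyte receptors were lower, Itgax with -2.49 (-3.04 to -1.98), Ccr2 with -1.15 (-1.33 to -0.96), Itgam with -1.08 (-1.30 to -0.86), Xcr1 with -0.88 (-1.32 to -0.46), Ccr1 with -0.85 (-1.25 to -0.45), Itga4 with -0.76 (-0.96 to -0.55) and Itgb2 with -0.68 (-0.85 to -0.50). S1pr1, the endothelial S1P receptor, had a ratio of 0.32 (0.19 to 0.44). The part of the marker levels in these differences was not tested.

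Seen by receptor, some genes leaned one way in most classes, although the classes share the same 2 libraries and are not independent. How many of all genes lean one way in as many classes was not computed. Ccr2 was lower in ABX in 18 of 19 classes tested, mature DC-like cells being the exception, with a median ratio of -0.42, and was past 1.5-fold lower in 5. Itgam was lower in 15 of 17 classes, with a median of -0.59, and past 1.5-fold lower in 9. In 12 of the 13 non-macrophage classes with lower Itgam the summed macrophage markers were lower in ABX as well. Lower sums were the rule, however, since among all compared non-macrophage classes only CD8 T-like, NKT-like and neutrophil-like cells had higher ones in ABX. Some falls were small, as in NK-like cells with 2585 and 2556 CPM. The part of these markers was not tested. Itgb2 was lower in 18 of 20 and Itgb7 in 16 of 19 classes, but with medians of -0.19 and -0.13. Cxcr3 leaned the other way and was lower in only 5 of 18 classes. Cxcr4 was lower in 10 of 20 classes with a median of -0.0019 and was under 1.5-fold in all of them.

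**Figure D5:**
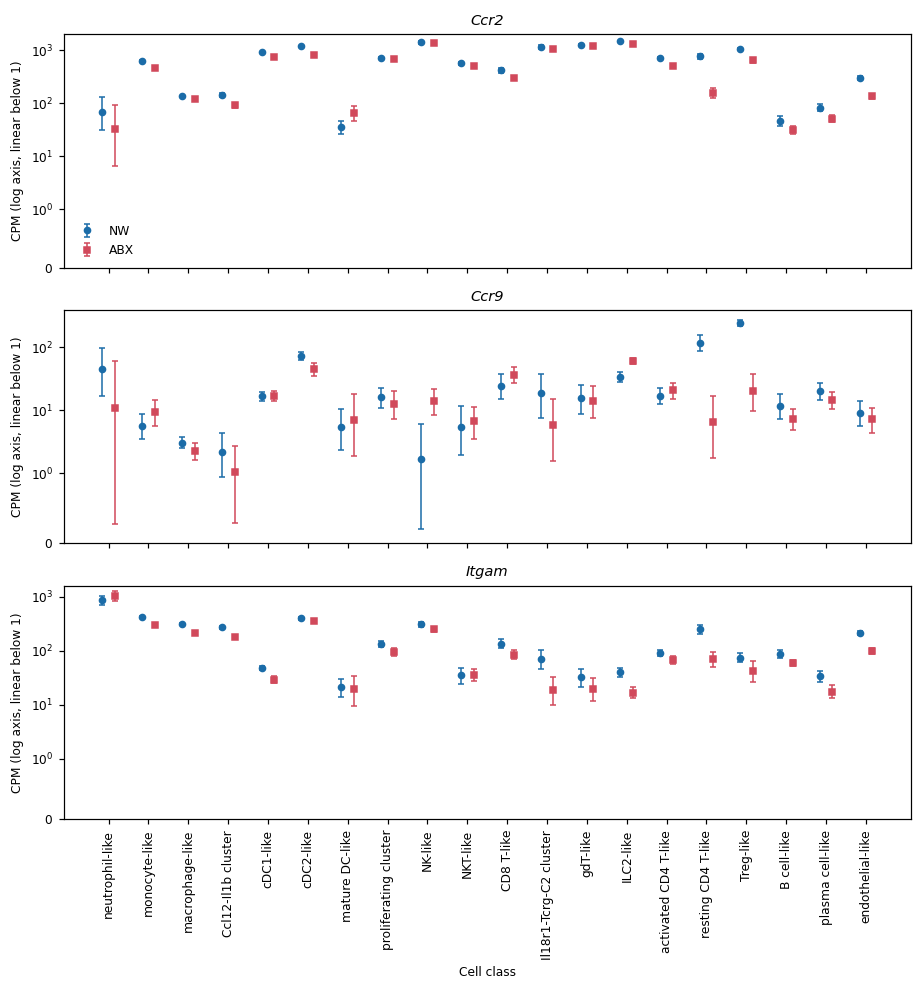
CPM of Ccr2, Ccr9 and Itgam in 20 cell classes for the NW library (blue circles) and the ABX library (red squares), on a log axis that is linear below 1, with exact 95% Poisson intervals for counting error. Ccr2 lies lower in ABX in most classes, Ccr9 differs most in Treg-like and resting CD4 T-like cells and is higher in ABX in ILC2-like cells, and Itgam is lower in ABX in macrophage-like and most other classes.

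The ligands and other genes of these pathways were taken from 6 fixed lists of 86 genes and are read against the 10.6% of pairs over all genes. Of the chemokine ligands (26 genes), 124 of 232 pairs of a gene and a class were past 1.5-fold (53.4%), 36 higher and 88 lower in ABX. The CCR4 ligand Ccl22, secreted by mature dendritic cells, had 63.7 and 20.5 CPM, a log2 ratio of -1.64 (-1.73 to -1.55) over all cells, which includes the smaller ABX share of mature DC-like cells given above. Within mature DC-like cells it had 2380.2 and 1693 CPM, a log2 ratio of -0.49 (-0.60 to -0.39), under 1.5-fold, and within ILC2-like cells 201 and 5.98 CPM, a log2 ratio of -5.07 (-5.68 to -4.52). Ccl17, the other CCR4 ligand, had 26.0 and 14.2 CPM, a log2 ratio of -0.87 (-0.98 to -0.75) over all cells, but in macrophage-like cells it was higher in ABX, with 4.67 and 9.01 CPM, a log2 ratio of 0.95 (0.62 to 1.27). In macrophage-like cells the monocyte and neutrophil attractants Ccl7 and Cxcl1 were lower, with 37.5 and 15.6 CPM, a log2 ratio of -1.26 (-1.45 to -1.08), and 22.9 and 10.7 CPM, a log2 ratio of -1.10 (-1.33 to -0.87). Neutrophil-like cells had less Cxcl2, 5344 and 1117 CPM, a log2 ratio of -2.26 (-2.57 to -1.96), and Ccl3, 2069 and 579.8 CPM, a log2 ratio of -1.84 (-2.28 to -1.41). Of the 5 ligands tested there 3 were lower and 1 higher in ABX. The CCR3 ligand Ccl11, a fibroblast product, had 0.731 and 7.78 CPM, a log2 ratio of 3.41 (3.01 to 3.84) over all cells, where fibroblast-like cells numbered 5 in NW and 90 in ABX. NK-like cells had less of the XCR1 ligand Xcl1, 413 and 259 CPM, a log2 ratio of -0.68 (-0.88 to -0.48).

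Of the other receptors of these families (9 genes), 12 of 57 pairs of a gene and a class were past 1.5-fold (21.1%), 4 higher and 8 lower in ABX, among them P2ry10 in activated CD4 T-like cells with 325 and 179 CPM, a log2 ratio of -0.86 (-1.04 to -0.69). Of the genes of S1P and oxysterol metabolism (10), 10 of 64 pairs of a gene and a class were past 1.5-fold (15.6%), 6 higher and 4 lower in ABX, and the S1P-degrading phosphatase gene Plpp3 had 264 and 527 CPM, a log2 ratio of 1.00 (0.86 to 1.14) in endothelial-like cells. Of the other integrin subunits (11), 9 of 31 pairs of a gene and a class were past 1.5-fold (29.0%), 3 higher and 6 lower in ABX, with Itga3 in endothelial-like cells at 36.3 and 69.8 CPM, a log2 ratio of 0.94 (0.56 to 1.34). Of the integrin activators and ligands (15), 33 of 178 pairs of a gene and a class were past 1.5-fold (18.5%), 17 higher and 16 lower in ABX. In macrophage-like cells the VLA-4 ligand Vcam1 was higher, 236 and 376 CPM, a log2 ratio of 0.67 (0.62 to 0.72), and fibronectin, Fn1, lower, 49.6 and 7.68 CPM, a log2 ratio of -2.69 (-2.95 to -2.44). Of the signalling and retention genes (15), 46 of 267 pairs of a gene and a class were past 1.5-fold (17.2%), 10 higher and 36 lower in ABX. Rgs1, which dampens chemokine receptor signals, had 256 and 131 CPM, a log2 ratio of -0.97 (-1.17 to -0.77) in activated CD4 T-like cells, and Cd69, which pulls S1PR1 off the surface, had 187 and 107 CPM, a log2 ratio of -0.81 (-0.98 to -0.63) in ILC2-like cells.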

How the data were processed

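The authors processed the reads with the BD WTA Rhapsody Analysis Pipeline (version 1.8 per the file headers) on GRCm38 (mm10 in the submitters' processing notes, which also name R 3.6.0 and Seurat 3.0.1) and deposited, per cell barcode, whole-number UMI counts of genes and 10 antibodies, without normalization. The 37 members and the lists of other genes were chosen with earlier results of these data known. Cells were filtered as in the report, and doublets were kept in the values given. Both libraries were clustered together in Seurat 5.3.0 (R 4.3.3) on 2000 variable genes without the members, 30 principal components and 8 antibodies, using weighted nearest neighbours (Louvain, resolution 0.6), without integration. Clusters were named from the marker list with the highest mean fold, with at least 3 markers detected and no defining markers of another lineage. These naming rules were written after the clusters had been seen, and differences from the study's classes can come from them. The receptors named are all members, with those past 1.5-fold in a class; listed pathway genes were counted in every class and named only past 1.5-fold at 200 UMIs or more, at most 3 per list and direction. The interval of a CPM is the exact Poisson interval, that of a ratio the exact one for 2 Poisson rates, both at 95%. UMIs come from 3′ ends, so levels were compared between classes within a gene. The script was tested on simulated counts. 1 listed gene is not reported here by name. Alternatives changed the clustering, doublets, scaling, cell weights, minimum of UMIs, mitochondrial limit and class weights.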

Additional observations from a re-analysis of the deposited data

Results flagged for a closer look

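Ccr9 was singled out because its ABX to NW ratio pointed in opposite directions in different classes, in pairs that stayed past 1.5-fold in each alternative. The log2 ratio was 0.84 in ILC2-like cells, -3.57 in Treg-like cells, -0.71 in cDC2-like cells and -4.16 in resting CD4 T-like cells. The difference between these classes was not tested, since each condition had 1 library.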

How the results depend on the processing

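No paired analysis was possible because each condition had 1 library, and no replicate could be left out. The count of receptor and class pairs past 1.5-fold was 99 and lay between 71 and 112 over other clusterings, doublet removal, median scaling, per-cell means, a 10% mitochondrial limit and removal of the 1% of cells with the most UMIs of a receptor, or lymphoid cells with C1q UMIs. It moved with the minimum of UMIs, to 155 at 20 UMIs and 38 at 200 UMIs, since other numbers of pairs are then tested. Over all cells 7 receptors were past 1.5-fold, and 5 with the same class shares in both libraries to 8 without the cells with the most UMIs. 28 receptors had a highest class apart from the next, and 24 to 29 over the alternatives. 36 of the 99 pairs kept a ratio past 1.5-fold in each alternative run for them, and 19 turned sign in at least 1. These counts were read from the ratio alone. A minimum of 20 or 200 UMIs does not change a ratio, so these settings could not move them. Clustering by RNA alone reversed Cx3cr1 in CD8 T-like cells (0.87), Xcr1 in CD8 T-like cells (-0.096), Itgax in CD8 T-like cells (0.22), Ccr7 in ILC2-like cells (0.22), Itgb5 in ILC2-like cells (0.044), Ccr3 in activated CD4 T-like cells (0.16), Ccrl2 in activated CD4 T-like cells (-0.52), Cx3cr1 in cDC1-like cells (-0.094), S1pr1 in cDC2-like cells (-0.26), Ccr1 in endothelial-like cells (0.0055), Itga4 in gdT-like cells (0.028) and Itgae in monocyte-like cells (0.14). With 50 principal components, the sign of Ccr1 in CD8 T-like cells (0.23), Cxcr2 in macrophage-like cells (-0.042), Ccr2 in mature DC-like cells (-0.43), Ccrl2 in monocyte-like cells (0.11) and S1pr4 in monocyte-like cells (-0.58) turned. With the mean of per-cell CPM, the sign of Itga4 in Il18r1-Tcrg-C2 cluster (-0.063), Cxcr2 in macrophage-like cells (-0.64) and Itgae in monocyte-like cells (0.074) turned. Without lymphoid cells with 10 or more C1q UMIs, an alternative chosen after seeing the data, the sign of Ccr1 in CD8 T-like cells (2.34), Cx3cr1 in activated CD4 T-like cells (-0.47) and Ccrl2 in activated CD4 T-like cells (-0.090) turned. With the same class shares in both libraries, the sign of Cxcr5 in all cells (-0.025) turned. The cause was not tested. With RNA alone 17 classes could be compared in place of 20. Scrublet's own threshold marked 338 NW but 3 ABX cells as doublets. With the NW threshold in both libraries, also chosen after seeing the data, 338 and 329 cells were left out, and 96 pairs were past 1.5-fold. Counts under 50 UMIs, as for Ccr10 outside plasma cell-like cells, allowed no ratio. Genes with 50 UMIs have wide intervals, and the spread between mice is unknown.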

Other observations

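Barcodes that did not pass the filters, 5188 in NW and 5061 in ABX, carried the 37 receptors at a summed 1165 and 1116 CPM, against 3562 and 3350.2 CPM in the cells kept. Per class, the 37 receptors together took the largest part of the RNA in neutrophil-like cells, 11802 CPM in NW and 11328 CPM in ABX, and in NK-like cells, 6889 and 6473 CPM, and the least among compared classes in plasma cell-like cells, 1316 and 1351 CPM. In resting CD4 T-like cells the sum was 4871 CPM in NW and 3348 CPM in ABX.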
